A study of Mus musculus with 12 samples.

Results

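Cytochrome P450 enzymes are a superfamily of heme proteins whose genes carry the root symbol Cyp. The rows taken here are those whose symbol is Cyp followed by a number, a letter and a number, and 39 of the 16411 genes in the count table were members. Of these, 19 were measured, meaning at least 10 counts in 6 or more of the 12 samples, and 20 were not. The marker gene of the set, Cyp2e1, was among those measured. The study sequenced RNA of 6 mammary tumors and of benign mammary tissue in 6 samples, all from female mice with the genotype MMTV-Neu-NDL-YD5, a transgenic line on the FVB background in which the MMTV promoter drives an activated form of neu, the rodent HER2, in the mammary epithelium. No treatment was given, and the labels state no age for single samples. Benign tissue was mammary tissue with no visible tumor, taken as far from a tumor as possible, so both groups carried the transgene. Tumors and benign samples came from different mice.

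Most P450 enzymes insert an oxygen atom into lipids, hormones and foreign compounds. Most of those of the endoplasmic reticulum take electrons from P450 oxidoreductase, encoded by Por, and those of mitochondria take them from ferredoxin. The activity of such an enzyme depends on its electron donor and on heme as well as on its own transcript. Families that act on foreign compounds are best known from liver and lung, while other members make or break down oxysterols, vitamin D, retinoic acid, steroid hormones and fatty acid signals in many tissues.

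Most P450 genes that could be measured were lower in tumors than in benign tissue. Of the 19, 13 were lower in tumors, 2 were higher and 4 did not pass the test. The test was edgeR's two-sided quasi-likelihood test at an adjusted p-value under 0.1, and over all 13191 genes tested it called 63.0% of genes, with 34.8% lower and 28.2% higher in tumors. Among the measured P450 genes 68.4% were lower and 10.5% were higher, and their median log2 fold change, tumor over benign, was -2.25 beside -0.06 for all genes tested. For 9 of the 19, every tumor lay below every benign sample, an order that 21.2% of all genes showed. All 19 reached 10 counts in every benign sample, while 8 of them did not do so in every tumor. A gene that entered the test only through its benign samples had to be lower in tumors, so these counts describe the measured genes and not all 39. Where 10 counts were required in every sample, which removes genes near 0 in tumors, 11 P450 genes were left, of which 4 were lower (36.4%, beside 28.9% of all genes in that fit) and 3 higher (27.3%, beside 32.8%), with a median of -0.51. Under that filter their shares were near those of all genes.

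**Figure D1:**
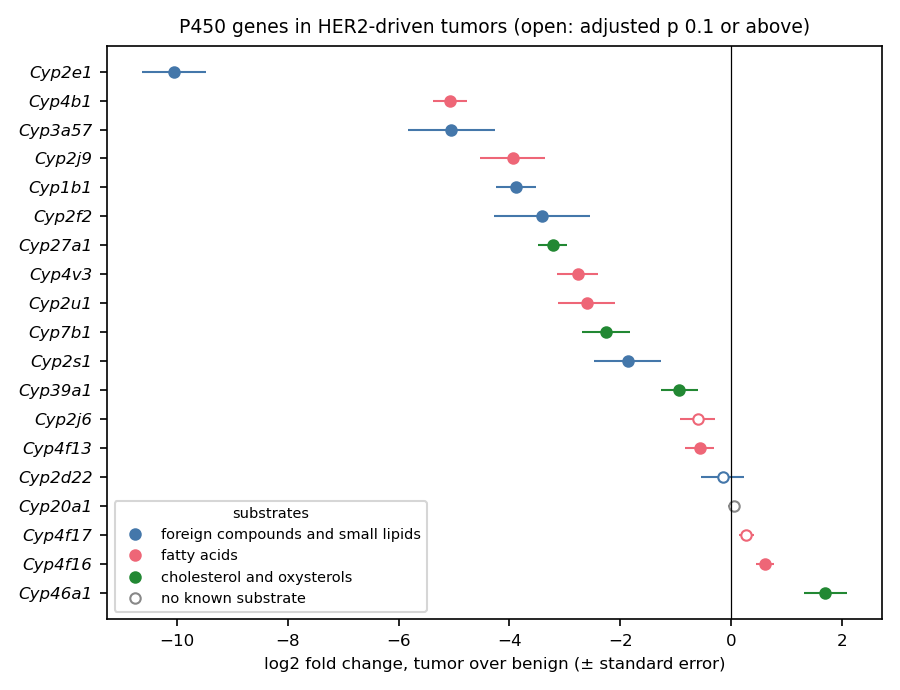
The 19 measured P450 genes are ordered by log2 fold change, tumor over benign (x axis, points with standard errors, 6 samples a group), with colors for the kind of substrate and open points for adjusted p-values of 0.1 or above. Cyp2e1 lies far to the left at -10.05, and 2 filled points, Cyp4f16 and Cyp46a1, lie right of 0.

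Both kinds of tissue hold several cell types, and markers of several of them differed between the groups. Levels are given in CPM, the usual unit of counts relative to library size, with library sizes corrected by the TMM method. The summed level of 8 adipocyte markers ranged from 9378 to 20377 CPM in benign samples and from 29.8 to 131 CPM in tumors, and all 8 markers were lower in tumors without overlap. Markers of fibroblasts (5 of 5) and endothelium (5 of 5) were also lower, and 4 of 5 macrophage markers were lower, beside 34.8% of all genes tested. Of 7 luminal epithelial markers 5 were higher in tumors, beside 28.2% of all genes, and 1 did not pass. The other, Krt19, was lower without overlap (log2 fold change -4.74). In bulk tissue, fewer cells of a type and less RNA per cell cannot be told apart, and the part of adipocyte content in the P450 values was not tested. Skeletal muscle markers summed to 34097 CPM or more in benign samples 3, 4 and 6 and to at most 357 CPM in every other sample, and brown fat markers were highest in benign samples 4 and 6, at 2977 and 814 CPM. Of the hepatocyte markers only Alb passed the filter, at a median of 19.3 CPM in benign tissue and 0 in tumors. The others did not share 1 direction. Ahsg was at 0 to 0.355 CPM in benign tissue and 0.675 to 22.2 CPM in tumors. Fgb was at 0.132 to 4.10 CPM in benign tissue and at most 0.138 CPM in tumors. Apoa1, Apoa2, Apoh and Hpx reached at most 0.955 CPM in any sample. Total counts ranged from 5240853 to 8588567 per sample.

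The largest fall was that of Cyp2e1, the enzyme that oxidizes ethanol, acetone and fatty acids and is best known from the liver. It spans chr7:140763739-140774987 on the plus strand. Its level in benign tissue was lowest in sample 5 (85.2 CPM), had a median of 252 CPM and was highest in sample 6 (316 CPM). In tumors it ran from 0 in 2 samples to 0.549 CPM, with a median of 0.133 CPM. The groups lay far apart, with 9 counts in all 6 tumors together (95% Poisson interval 4.12 to 17.1) and 8666 in the 6 benign samples. The log2 fold change was -10.05 ± 0.57 (SE), with an adjusted p of 2.2e-08. Per kilobase of exon, Cyp2e1 stood at the top of the 19 genes in benign tissue, at 103 CPM per kb, and at the bottom in tumors, at 0.0815 CPM per kb.

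The proximal promoters of 4 genes are shown, a choice made with their values known. Of the measured P450 genes, Cyp2e1 and Cyp4b1 had the largest falls, and Cyp46a1 had the largest rise. Cyp1b1 also fell strongly, but Cyp3a57 (log2 fold change -5.05) and Cyp2j9 (-3.94), which are not shown, fell more than Cyp1b1. Each run is the 250 bases before the RefSeq start site in build GRCm38.p6, read 5′ to 3′ along the gene. Their positions are chr7:140763569-140763818 on the plus strand for Cyp2e1, chr4:115647722-115647971 on the minus strand for Cyp4b1, chr17:79715062-79715311 on the minus strand for Cyp1b1 and chr12:108334066-108334315 on the plus strand for Cyp46a1. The RefSeq start sites used here can differ from the gene spans given in the text, which come from GENCODE. The Cyp2e1 window runs past the GENCODE start of that gene (140763739), and the Cyp46a1 window ends before the GENCODE start (108334381). Capitals mark matches on either strand to 5 motifs, and no 2 matches overlap in these windows. The motifs were a core element written TATAAA, known as the TATA box, the core GCGTG bound by the aryl hydrocarbon receptor, the nuclear receptor half-site AGGTCA, the element GGGCGG known as the GC box, and the CCAAT box.
Cyp2e1: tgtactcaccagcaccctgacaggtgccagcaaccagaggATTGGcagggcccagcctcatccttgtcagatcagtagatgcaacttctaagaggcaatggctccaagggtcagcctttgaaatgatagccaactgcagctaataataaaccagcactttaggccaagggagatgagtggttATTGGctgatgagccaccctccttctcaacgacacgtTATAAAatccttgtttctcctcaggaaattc
Cyp4b1: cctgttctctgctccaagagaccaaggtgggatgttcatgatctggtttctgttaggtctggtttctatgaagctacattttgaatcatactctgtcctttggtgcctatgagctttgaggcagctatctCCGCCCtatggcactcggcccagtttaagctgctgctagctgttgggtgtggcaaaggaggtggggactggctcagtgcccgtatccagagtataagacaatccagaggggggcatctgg
Cyp1b1: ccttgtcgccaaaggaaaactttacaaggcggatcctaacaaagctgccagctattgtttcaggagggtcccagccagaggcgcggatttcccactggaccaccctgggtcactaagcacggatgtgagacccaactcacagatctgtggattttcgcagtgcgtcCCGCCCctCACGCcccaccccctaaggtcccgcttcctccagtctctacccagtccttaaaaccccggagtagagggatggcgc
Cyp46a1: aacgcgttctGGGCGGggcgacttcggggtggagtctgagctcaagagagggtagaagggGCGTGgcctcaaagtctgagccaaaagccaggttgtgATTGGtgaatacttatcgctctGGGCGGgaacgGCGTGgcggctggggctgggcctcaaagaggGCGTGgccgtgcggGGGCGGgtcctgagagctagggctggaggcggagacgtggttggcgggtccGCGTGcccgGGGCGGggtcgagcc
The Cyp2e1 window held the TATA box, which starts 31 bases before the start site, and 2 reverse CCAAT matches, with 2 CpG pairs. The Cyp4b1 window held a reverse GC box match and 3 CpG pairs. In Cyp1b1, which the aryl hydrocarbon receptor is known to induce, a reverse match to the receptor core starts 76 bases before the start site, next to a reverse GC box match, with 12 CpG pairs. The Cyp46a1 window held 4 receptor cores, 4 GC boxes, a reverse CCAAT match and 23 CpG pairs, and no TATA box. A window was found for 14 of the 19 measured genes. Among the 10 that were lower, the TATA box occurred in 1, the receptor core in 3, the half-site in 2, the GC box in 6 and the CCAAT box in 3. Over all 32851 promoter windows of this length the shares were 12.4%, 28.2%, 14.0%, 32.7% and 33.9%. The median number of CpG pairs was 3.5 in the 10 windows (0 to 17) and 6 in all promoters. Of the 2 genes called higher, Cyp46a1 had 23 CpG pairs and Cyp4f16 had 2. These matches are descriptions of letters, not of bound sites.

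Genes of the families that act on foreign compounds and small lipids (families 1, 2a to 2h, 2s and 3a) had 14 members, of which 6 were measured. In tumors 5 of the 6 were lower (83.3%, beside 34.8% of all genes tested) and the other was not called. Their median log2 fold change was -3.65. Of the lower genes, Cyp2e1, Cyp2f2, Cyp2s1 and Cyp3a57 reached 10 counts in every benign sample but not in every tumor. They entered the test through their benign samples, so the filter partly fixed this share. Members under the limit went both ways when all listed genes were fitted. There Cyp2b19 (log2 fold change 3.45) and Cyp2d10 (1.47) were higher, and Cyp1a1 (-4.35), Cyp2b10 (-2.26) and Cyp2c23 (-2.46) were lower, all at few counts. An exact permutation test over every regrouping of the samples gave an unadjusted p of 0.091 for Cyp2d10 and 0.067 for Cyp2b10. It gave 0.015 for Cyp2b19 and 0.0022 for Cyp1a1 and Cyp2c23. Of the 31-base words of Cyp2d10 and Cyp2b10, 50.2% and 19.45% also occur in other genes. Cyp1b1, an enzyme that hydroxylates estradiol and polycyclic aromatic compounds, had levels from 29.9 to 95.9 CPM in benign tissue (median 69.7) and from 2.61 to 5.76 CPM in tumors (median 4.67). Every tumor lay below every benign sample, and the 2 lowest benign values came from samples 4 and 6. The log2 fold change was -3.88 ± 0.36 (SE; adjusted p = 1.3e-06).

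Cyp3a57 belongs to the subfamily that handles many drugs and steroids in liver and gut. It ran from 1.85 CPM in benign sample 3 to 36.7 CPM in benign sample 4 (median 8.80), the widest range of the 19 genes relative to the lowest value, and from 0.138 to 0.675 CPM in tumors (median 0.400). The groups did not overlap, and the log2 fold change was -5.05 ± 0.79 (SE; adjusted p = 0.00013). Of its 31-base words, 22.6% also occur in other genes, mostly Cyp3a59, so reads of these copies may have been shared.

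Cyp2f2, known from the club cells of the airways, where it activates naphthalene, had levels from 6.99 to 52.7 CPM in benign tissue (median 24.3). In tumors it was at 0.110 to 1.89 CPM in 5 samples and at 11.1 CPM in tumor 5, so that the groups overlapped through that tumor alone. The log2 fold change was -3.41 ± 0.87 (SE; adjusted p = 0.0047), and -5.00 without tumor 5. Cyp2s1, an epithelial enzyme that acts on retinoids and prostaglandin-like lipids, showed the same arrangement at lower levels. It ran from 1.78 to 6.11 CPM in benign tissue (median 2.90) and from 0.135 to 0.688 CPM in 5 tumors, with 3.20 CPM in tumor 5. Its log2 fold change was -1.86 ± 0.60 (SE; adjusted p = 0.019), and -2.85 without tumor 5.

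Cyp2d22, a relative of the human drug enzyme gene CYP2D6, did not pass the test. Its level was 32.6 to 106 CPM in benign tissue (median 56.0) and 24.4 to 92.6 CPM in tumors (median 52.5), with a log2 fold change of -0.15 ± 0.39 (SE; adjusted p = 0.76). Tumors fell into high values (69.9 to 92.6 CPM in tumors 2, 3 and 5) and low values (24.4 to 35.1 CPM in tumors 1, 4 and 6). The sign of its difference turned without tumor 1, 4 or 6, without benign sample 4 and without the benign samples rich in muscle or brown fat transcripts. Per kilobase it was the highest of the 19 genes in tumors, at 14.4 CPM per kb, after ranking at 16.0 CPM per kb behind 4 others in benign tissue.

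Of the P450 genes of fatty acid metabolism (families 2j, 2u and 4), 8 of 13 were measured. In tumors 5 were lower (62.5%, beside 34.8% of all genes tested) and 1 was higher (12.5%, beside 28.2%). The median log2 fold change of the 8 was -1.60. Of the lower genes, Cyp2j9, Cyp2u1 and Cyp4b1 reached 10 counts in every benign sample but not in every tumor, so the filter partly fixed this share. Cyp4b1, which acts on medium-chain fatty acids and on aromatic amines, lies at chr4:115624725-115647723 on the minus strand. Its level was 55.7 CPM at the lowest, 90.5 CPM at the median and 108 CPM at the highest in benign tissue, and 1.40, 2.31 and 4.69 CPM in tumors. All tumors were far below all benign samples. The log2 fold change was -5.07 ± 0.30 (SE; adjusted p = 2.8e-08), the smallest adjusted p among the measured P450 genes after that of Cyp2e1. Of its 31-base words, 11.8% occur in other genes, mostly the pseudogene Cyp4b1-ps2.

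Cyp4v3, the mouse counterpart of the human fatty acid hydroxylase gene mutated in a retinal dystrophy, had levels from 47.4 to 123 CPM in benign tissue (median 71.6) and from 4.09 to 16.8 CPM in tumors (median 13.3). The groups did not overlap, and the log2 fold change was -2.76 ± 0.37 (SE; adjusted p = 3.7e-05). Its exons overlap Gm45753 on the same strand. Cyp2u1, which hydroxylates arachidonic acid, was at 7.12 to 14.6 CPM in 5 benign samples, at 30.6 CPM in benign sample 4 and at 0.825 to 4.51 CPM in tumors (median 1.53). Its log2 fold change was -2.60 ± 0.51 (SE; adjusted p = 0.00082), again without overlap.

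The 2j subfamily makes epoxides of arachidonic acid, and its 2 measured genes, which are neighbours on chromosome 4, differed in size of change. Cyp2j9 was at 4.22 to 10.5 CPM in benign tissue (median 8.79) and at 0.110 to 1.66 CPM in tumors (median 0.147), a log2 fold change of -3.94 ± 0.59 (SE; adjusted p = 8.8e-05) without overlap. Cyp2j6 was at 19.3 to 30.6 CPM in benign tissue and at 6.59 to 16.5 CPM in 5 tumors, and tumor 5 had the highest value of all 12 samples at 33.1 CPM. Its log2 fold change of -0.60 ± 0.32 (SE) missed the threshold (adjusted p = 0.12) and passed it without tumor 5 (-0.88, adjusted p = 0.0085).

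The 4f subfamily, known for ending leukotriene signals by hydroxylating their fatty acid chain, held neighbours that went in different directions. Its 6 members on chromosome 17 lie between 32452723 and 32947402, and 3 of them were measured. The others, Cyp4f14 (-2.03), Cyp4f15 (-4.50) and Cyp4f39 (-5.51), were lower when all listed genes were fitted, at few counts. Cyp4f16 was higher in tumors, at 21.7 to 40.4 CPM (median 33.2) beside 17.4 to 26.7 CPM in benign tissue (median 20.9). Its log2 fold change was 0.61 ± 0.16 (SE; adjusted p = 0.0058), and tumor 5 alone fell within the benign range. Cyp4f13 was lower, at 13.5 to 40.5 CPM in tumors beside 24.3 to 51.5 CPM in benign tissue. Only 2 tumors lay below the benign range, and the log2 fold change of -0.57 ± 0.25 (SE; adjusted p = 0.074) was no longer called without tumor 1, 2, 4 or 6 or without benign sample 1, 2, 4 or 6 (adjusted p up to 0.19). Cyp4f17 ranged from 23.5 to 33.0 CPM in tumors and from 18.3 to 30.1 CPM in benign tissue, a log2 fold change of 0.28 ± 0.14 (SE) with an adjusted p of 0.10, just above the threshold, and it was called higher without any 1 of the tumors or without benign sample 2 or 4 (adjusted p down to 0.029). Cyp4f16 shares 26.7% of its 31-base words with other genes, most of them with Cyp4f37, and Cyp4f17 shares 11.7%, so counts may have been split among copies.

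All 4 P450 genes of cholesterol and oxysterol metabolism were measured, and they went both ways. Of the 4, 3 were lower (75%, beside 34.8% of all genes tested) and 1 was higher (25%, beside 28.2%). Of the lower genes, Cyp7b1 did not reach 10 counts in every tumor and entered the test through its benign samples. Cyp27a1, the mitochondrial sterol hydroxylase that makes the main circulating oxysterol, had levels from 28.4 to 64.6 CPM in benign tissue (median 32.9) and from 2.69 to 5.38 CPM in tumors (median 4.49). The groups were well apart, with a log2 fold change of -3.22 ± 0.26 (SE; adjusted p = 3.4e-07). Cyp7b1, which inactivates that oxysterol, was low throughout, at 1.5 to 3.15 CPM in benign tissue (median 2.49) and 0.156 to 1.2 CPM in tumors (median 0.340). It too did not overlap, and its log2 fold change was -2.25 ± 0.43 (SE; adjusted p = 0.00062).

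Cyp46a1 and Cyp39a1 act in sequence on cholesterol: the first, best known from neurons, makes an oxysterol that the second hydroxylates further. Cyp46a1 (chr12:108334381-108362234, plus strand) had the largest rise of the measured P450 genes, from 1.96 to 8.60 CPM in benign tissue (median 3.20) to 6.19 to 18.5 CPM in tumors (median 14.0). In 4 of the 6 tumors it was above the highest benign sample, and tumors 2 and 3 lay within the benign range, below sample 2. The log2 fold change was 1.70 ± 0.39 (SE; adjusted p = 0.0024), and it was 1.27 (adjusted p = 0.041) when benign samples 3, 4 and 6, which held muscle transcripts, were left out. Cyp39a1 was lower, at 8.19 to 13.5 CPM in benign tissue (median 11) and 2.29 to 9.49 CPM in tumors (median 5.52), with 4 of 6 tumors below the benign range. Its log2 fold change was -0.94 ± 0.33 (SE; adjusted p = 0.029).

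Cyp20a1, a P450 gene with no established substrate, had the smallest difference of the set. It ran from 23.3 to 30.6 CPM in benign tissue (median 27.5) and from 24.4 to 30.8 CPM in tumors (median 28.8). The difference of 0.05 ± 0.10 (SE) on the log2 scale was within the spread between samples (adjusted p = 0.72).

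**Figure D2:**
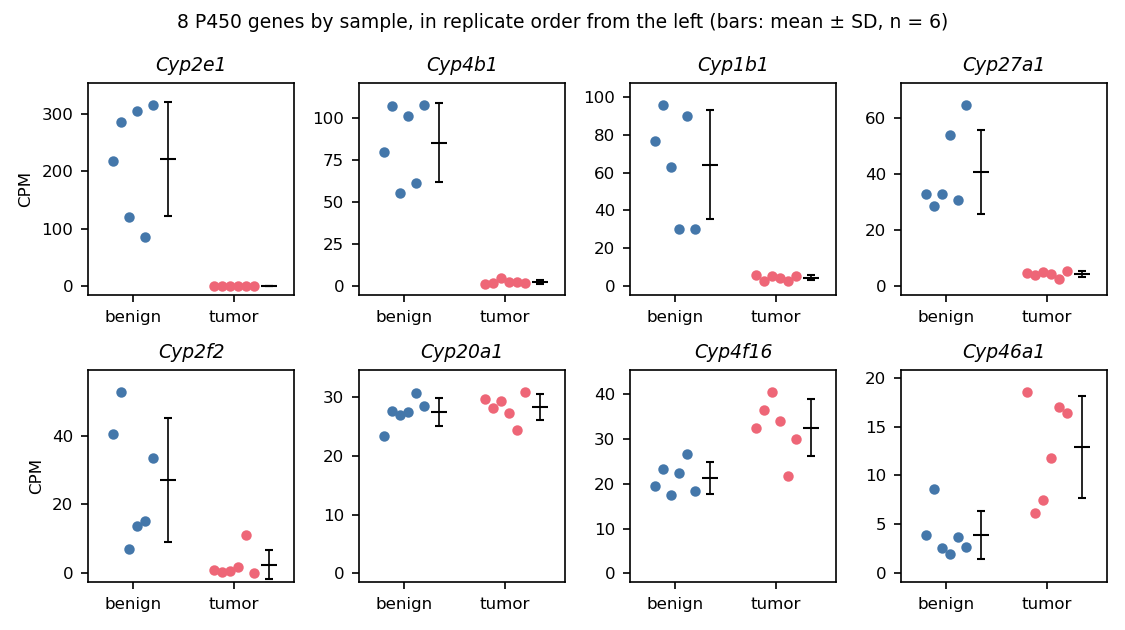
Levels of 8 P450 genes in CPM (y axes, linear from just below 0) are shown for each benign (blue) and tumor (red) sample in replicate order from the left, with mean and SD beside them. Cyp2e1, Cyp4b1, Cyp1b1 and Cyp27a1 separate the groups fully, the fifth tumor stands apart in Cyp2f2, Cyp20a1 overlaps throughout, and Cyp4f16 and Cyp46a1 are higher in most tumors.

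The sum over all 39 genes showed how the makeup of P450 transcripts shifted. It ranged from 517 to 998 CPM in benign tissue (median 843) and from 206 to 305 CPM in tumors (median 240). Without Cyp2e1 the ranges were 397 to 692 CPM and 206 to 304 CPM, which did not overlap either. Cyp2e1 held a mean of 26.9% of the P450 counts in benign tissue and 0.0732% in tumors. In tumors the largest mean shares were those of Cyp2d22 (21.5%), Cyp4f16 (13.5%), Cyp4f17 (11.9%) and Cyp20a1 (11.8%), none of which was lower by the test. Per kilobase, the order in tumors after Cyp2d22 was Cyp20a1 (12.4 CPM per kb), Cyp4f16 (10.6) and Cyp4f17 (9.01), whereas in benign tissue Cyp2e1 was followed by Cyp4b1 (37.9 CPM per kb), Cyp4v3 (21.2) and Cyp27a1 (18.7).

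**Figure D3:**
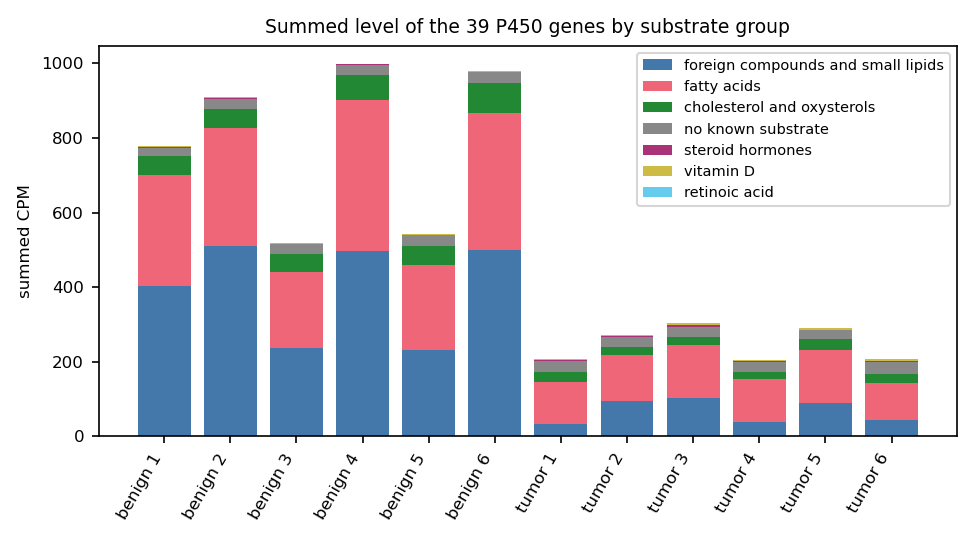
Stacked bars give the summed level of the 39 P450 genes in CPM (y axis) for each of the 12 samples, colored by the kind of substrate. Benign bars reach 517 to 998 CPM and tumor bars 206 to 305 CPM, with the loss widest in the genes that act on foreign compounds and small lipids and in those that act on fatty acids.

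The 20 genes under the limit included those of vitamin D, retinoic acid and steroid hormone metabolism. Their counts were too few for the main test, and 12 of them stayed under 10 counts in every sample. Values of 6 that had been listed by name are given with a two-sided exact permutation test over every regrouping of the samples, whose smallest possible p is 0.0022, unadjusted and run for all 20 genes. Cyp24a1, which degrades active vitamin D, was higher in tumors, at 0.778 to 5.54 CPM (median 2.01) beside 0 to 0.926 CPM in benign tissue (exact permutation p = 0.0043). Its exons overlap Pfdn4 on the other strand, so reads of Pfdn4 may be among its counts. Cyp27b1, which makes active vitamin D, was at 0.241 to 0.934 CPM in tumors and 0 to 0.556 CPM in benign tissue (exact permutation p = 0.10). Cyp2r1, the enzyme of the step before, was lower, at 0 to 0.675 CPM in tumors and 0.534 to 1.5 CPM in benign tissue (exact permutation p = 0.0043).

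Cyp11a1, which starts steroid synthesis from cholesterol, had 3 to 8 counts in each benign sample and 0 to 3 in each tumor (exact permutation p = 0.0065). Cyp1a1, the classical target of the aryl hydrocarbon receptor, had 14 counts in the benign samples together, 1 to 4 in each, and 0 in every tumor (95% Poisson upper limit 3.69 counts for the 6 together; exact permutation p = 0.0022). Cyp26a1, which degrades retinoic acid, had 5 counts in benign tissue and 1 in tumors (exact permutation p = 0.061). At this depth such levels give presence or near absence and little more.

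Cyp17a1, the steroid hydroxylase and lyase of androgen synthesis, is named after its values were seen. It had 3 counts in the 6 benign samples together (95% Poisson interval 0.619 to 8.77) and 132 in the 6 tumors, with 2 counts in tumor 5 and up to 39 in the others. Its level was 0.256 to 4.28 CPM in tumors and 0 to 0.250 CPM in benign tissue, and this is the smallest exact permutation p possible (0.0022). It reached 10 counts in 5 samples, as did Cyp24a1, which put these 2 genes just outside the limit of 6, while Cyp2e1 and Cyp3a57, with 6 each, were just inside. When all 16411 listed genes were fitted with edgeR, 33.4% of genes were lower and 27.9% higher, and of these 20 P450 genes 8 were lower, 4 were higher and 8 did not pass. The 4 higher were Cyp17a1, Cyp24a1, Cyp2b19 and Cyp2d10. The 8 lower were Cyp11a1, Cyp1a1, Cyp2b10, Cyp2c23, Cyp2r1, Cyp4f14, Cyp4f15 and Cyp4f39. Of these, Cyp1a1, Cyp2c23, Cyp4f15 and Cyp4f39 had the same smallest exact permutation p (0.0022) as Cyp17a1, in the other direction. Cyp4f18 reached 106 counts in benign sample 1, or 19.6 CPM, and at most 1.69 CPM in any other sample.

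The electron donors of P450 enzymes and the proteins that bind them had 10 genes in the table. Of these, 7 (70%) were lower and 1 (10%) higher in tumors, beside 34.8% and 28.2% of all genes tested. Their median log2 fold change was -0.44. Por, the donor for most P450 enzymes of the endoplasmic reticulum, ran from 213 to 349 CPM in benign tissue (mean 262) and from 43.1 to 65.1 CPM in tumors (mean 51.6). Its log2 fold change was -2.34 ± 0.17 (SE; adjusted p = 1.8e-07), without overlap. The cytochrome b5 genes Cyb5b (-2.40) and Cyb5a (-2.37) fell by similar amounts. Fdx1, the ferredoxin that serves mitochondrial P450 enzymes such as that of Cyp27a1, did not pass (-0.11 ± 0.20 SE, adjusted p = 0.65), and its reductase Fdxr fell by 0.44 on the log2 scale. Pgrmc1, a heme protein that binds P450 enzymes, was higher (0.32 ± 0.11 SE, adjusted p = 0.022), and its relative Pgrmc2 was lower (-0.80).

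Of 12 genes of heme synthesis and breakdown, 7 were lower (58.3%, beside 34.8% of all genes tested) and 2 higher (16.7%, beside 28.2%). In all, 75% of them were called, beside 63.0% of all genes. Alad (-2.12), Alas1, the first enzyme of the pathway (-1.95), and Fech, the last (-0.94), fell without overlap between groups. Hmox1, which breaks heme down, was higher (log2 fold change 2.05 ± 0.47 SE, adjusted p = 0.0024), with 92.3 CPM or more in 4 tumors and 33.7 and 34.3 CPM in tumors 4 and 5, within the benign range of 26.5 to 46.2 CPM. Cpox was also higher (0.43 ± 0.13 SE, adjusted p = 0.013).

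Receptors and factors known to control P450 genes numbered 23 in the table, of which 19 were tested. Among these, 10 were lower (52.6%, beside 34.8% of all genes tested) and 3 higher (15.8%, beside 28.2%). In all, 68.4% were called, beside 63.0% of all genes. Pparg, the fat cell regulator, ran from 141 to 268 CPM in benign tissue and from 0.138 to 2.09 CPM in tumors (log2 fold change -7.43 ± 0.39 SE, adjusted p = 1.0e-08). Nr5a2 (-4.56) and Cebpa (-4.07) had the next largest falls. The rises were those of Cebpb (1.33), the vitamin D receptor gene Vdr (1.19 ± 0.47 SE, adjusted p = 0.047) and the aryl hydrocarbon receptor gene Ahr. Ahr was at 33.2 to 81.7 CPM in tumors and 15.4 to 33.9 CPM in benign tissue (log2 fold change 1.0 ± 0.25 SE, adjusted p = 0.0045), while 2 genes it is known to induce, Cyp1b1 and Tiparp (-2.14), were lower. Its partner Arnt did not pass (0.07), and its repressor gene Ahrr was below the filter. When all listed genes were fitted with edgeR, Ahrr was lower (-2.83, adjusted p = 0.037). It had 23 counts in benign tissue, 12 of them in benign sample 1, and 3 in tumors.

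Enzymes that act on P450 products or on the same fatty acids numbered 9, of which 6 were tested. Of the 6, 4 were lower (66.7%, beside 34.8% of all genes tested) and none higher (beside 28.2%). Alox12 (-3.61), the soluble epoxide hydrolase gene Ephx2 (-2.61) and Alox5 (-1.48) had the largest falls. Ephx2, which turns fatty acid epoxides into diols, was at 117 to 462 CPM in benign tissue and 27.4 to 46.1 CPM in tumors. Ephx1, the microsomal hydrolase, did not pass (0.11 ± 0.19 SE, adjusted p = 0.66). Of 3 P450 genes outside the symbol rule, the prostacyclin synthase gene Ptgis (-3.09) and the thromboxane synthase gene Tbxas1 (-0.39, adjusted p = 0.077) were lower. Cyp51, the P450 enzyme of cholesterol synthesis, did not pass, at 22.8 to 60.3 CPM in benign tissue (median 40.5) and 20.0 to 79.1 CPM in tumors (median 30.5), a log2 fold change of -0.14 ± 0.33 (SE; adjusted p = 0.74).

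**Figure D4:**
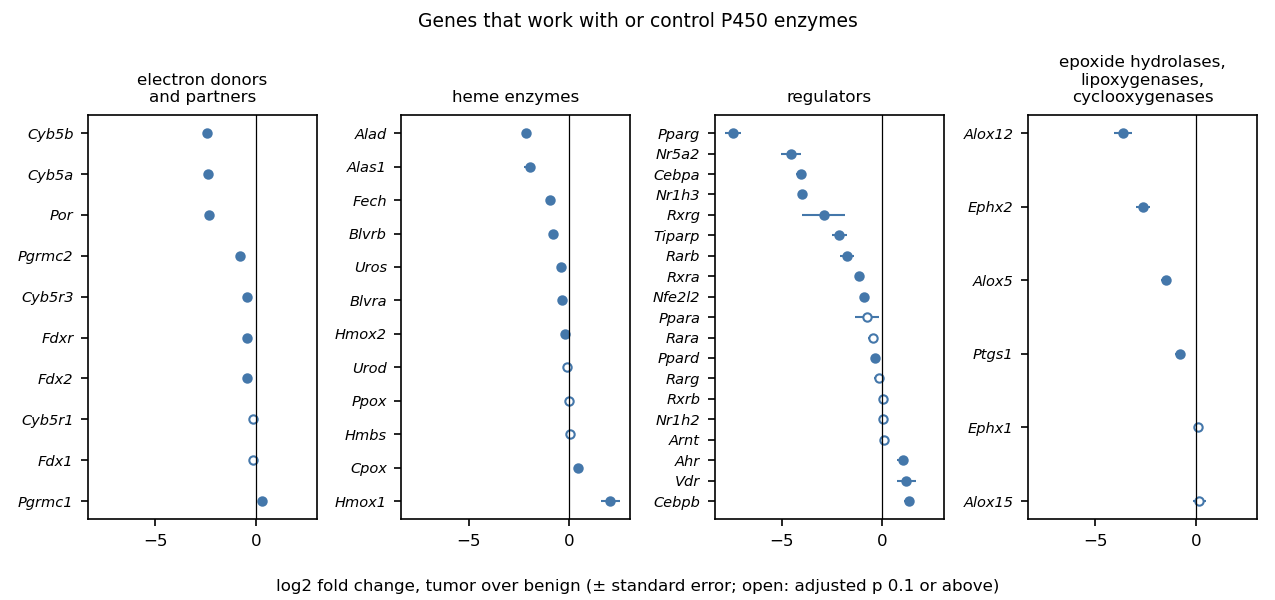
Log2 fold changes, tumor over benign (x axes, points with standard errors), are given for the tested genes of 4 lists that work with or control P450 enzymes, with open points for adjusted p-values of 0.1 or above. Por, Cyb5a and Cyb5b lie near -2.4 on the left panel, and Pparg lies farthest left of all, at -7.43.

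P450 genes also differed among the benign samples. Samples 4 and 6, which had the most brown fat transcripts, held the 2 highest values for 8 of the 19 measured genes (42.1%, beside 20.6% of all genes tested), namely Cyp27a1, Cyp2d22, Cyp2e1, Cyp2j6, Cyp2j9, Cyp2u1, Cyp3a57 and Cyp4v3. They held the 2 lowest values for 3 genes (15.8%, beside 21.6%), namely Cyp1b1, Cyp2s1 and Cyp39a1. The same 2 samples had the highest summed adipocyte markers. The part of brown fat, muscle and adipocyte content in this arrangement was not tested. Without these 2 samples 12 of 21 P450 genes were lower in tumors (57.1%, beside 4174 of the 13478 genes in that fit) and 5 were higher (23.8%, beside 28.3% of all genes).

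**Figure D5:**
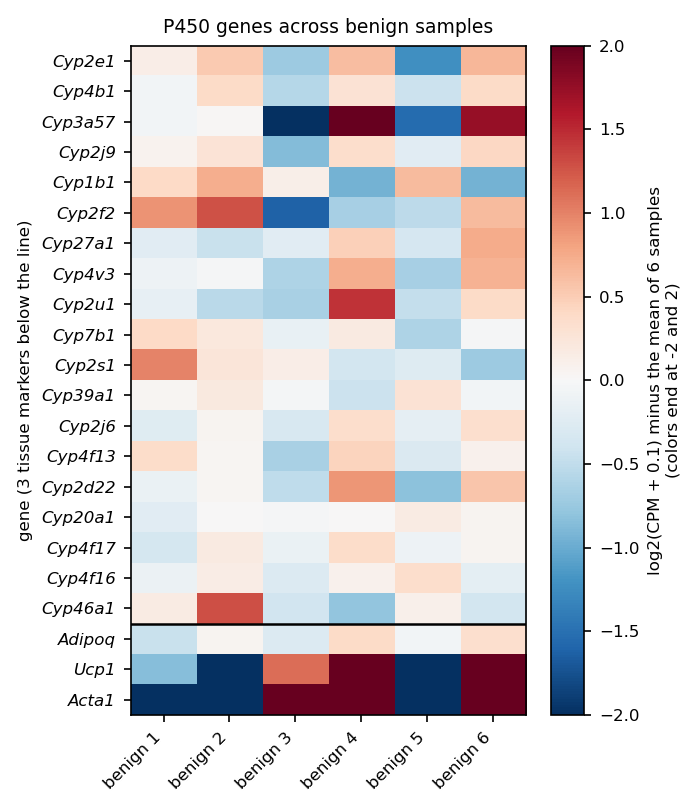
Colors give log2(CPM + 0.1) minus the mean of the 6 benign samples for each measured P450 gene (rows) and, below the line, for the markers Adipoq (fat), Ucp1 (brown fat) and Acta1 (muscle), with red above and blue below the mean. Samples 4 and 6 are red for Cyp3a57, Cyp27a1 and Cyp4v3 and blue for Cyp1b1, and Cyp1b1 is red in samples 1, 2 and 5.

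Tumor 5 stood at an end of the tumor range in P450 genes about as often as in all genes. It had the highest value of the 6 tumors for Cyp2f2, Cyp2j6, Cyp2j9, Cyp2s1, Cyp4f13 and Cyp4f17 (6 of 19, or 31.6%, beside 26.0% of all genes tested) and the lowest for Cyp20a1, Cyp27a1, Cyp4f16 and Cyp4v3 (4 of 19, or 21.1%, beside 23.9%). It also had the highest sums of muscle (148 CPM), brown fat (24.9 CPM) and hepatocyte markers (23.1 CPM) among tumors, the last mostly Ahsg at 22.2 CPM, while Alb was at 0. The part of these in its P450 values was not tested.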

How the data were processed

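The authors enriched poly A RNA, made strand-marked libraries, trimmed paired reads with Trim Galore, quantified them with Salmon and analysed them with DESeq2, on mm10 per the submitters' processing notes. The deposited values are estimated counts of each gene, written as whole numbers and not scaled for library size (12 samples, 0 columns without a sample, at least 5 counts per gene). Tool versions, annotation and strand setting are not given in the sources used here.

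From these counts, genes were filtered with filterByExpr (minimum count 10, minimum total 15), scaled by TMM and compared by edgeR 4.0.16 (R 4.3.3, limma 3.58.1) with its two-sided quasi-likelihood test, Benjamini-Hochberg adjustment over 13191 genes and a threshold of 0.1, after the study. The filter kept the same 19 P450 genes as the limit of 10 counts in 6 samples. SE is the log2 fold change divided by the root of F. Tumors and benign samples came from different mice. Whether the samples within a group came from separate mice is not stated in the sources used here, so p-values measure only the spread between these samples. Replicates differed by more than sampling noise (chi-square per degree of freedom at least 11.3). Intervals cover counting error only. Coordinates, exon lengths and 31-base words come from GENCODE M21 (GRCm38), and promoters from RefSeq, with 30 of 39 members matched. Without a known strand setting, reads of Cyp2f2, Cyp2s1, Cyp2u1, Cyp24a1, Cyp4f18 and Cyp4x1 cannot be told from those of antisense genes that overlap them.

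Members and lists were chosen with earlier results of these data known. Values by sample are given for the 8 largest rises and falls among called members with a mean of at least 5 CPM in the higher group. They are also given for members listed by name, and the 3 largest rises and falls are named in other lists. Outside that rule, Tiparp, Arnt, Ahrr, Fdx1, Fdxr, Pgrmc2 and Ephx1 were named with their values known. The list of electron donors held 11 symbols, 1 of them an older name. Cyp19a1 was not analysed here, and 1 further gene that fits the symbol pattern is not reported here. Tests were tried on simulated data. Alternatives were DESeq2 1.42.0, other scalings and filters, a block for the replicate number, calls at 0.05, and leaving out samples.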

Additional observations from a re-analysis of the deposited data

Results flagged for a closer look

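A sample was set apart when its gap to the nearest other sample of its group, over the range of the group, exceeded Dixon's 95% critical value for 6 samples. On the CPM scale this held for 7 of the 42 groups examined (19 P450 genes, Cyp51 and Por in 2 tissues), where chance gives about 1 in 20, and on the log2 CPM scale for none; CPM was taken after both had been seen, because levels are given in CPM.

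Tumor 5 was set apart as the highest tumor for Cyp2f2, at 11.1 CPM beside 1.89 CPM in the next tumor, for Cyp2s1, at 3.20 beside 0.688 CPM, and for Cyp2j6, at 33.1 beside 16.5 CPM. Benign sample 4 was set apart for Cyp2u1, at 30.6 beside 14.6 CPM, and benign sample 2 for Cyp46a1, at 8.60 beside 3.89 CPM. Tumor 3 was set apart for Cyp4b1, at 4.69 beside 2.56 CPM, still below every benign sample. Tumor 1 was set apart for Cyp51, at 79.1 beside 33.9 CPM. The causes were not tested.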

How the results depend on the processing

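Of 410 values of single P450 genes under 22 alternatives, 373 kept their direction and their side of the threshold. The exceptions were 15 lost calls of Cyp4f13, 15 gained calls of Cyp4f17, 1 gained call of Cyp2j6 and 6 changes of sign of Cyp2d22. The counts of 2 higher and 13 lower genes, with a median of -2.25, became 3, 13 and -2.26 with DESeq2 and 3, 12 and -2.18 with total counts. With every gene of at least 1 count they became 7 higher and 20 lower, with a median of -1.63, and where only genes reaching 10 counts throughout were kept, 4 were lower and 3 higher with a median of -0.51 over 11 genes (28.9% and 32.8% of all genes in that fit), since that filter removes genes near 0 in tumors. Leaving out each sample in turn gave 3 to 5 higher, 12 to 14 lower and medians from -2.40 to -1.55, and many of these fits tested 20 or 21 P450 genes. Higher genes numbered 4 without benign sample 1, 3, 5 or 6 or tumor 1 or 5 and 5 without benign sample 2 or 4. Without the 3 benign samples rich in muscle transcripts 5 were higher (median -1.96), and without the 2 richest in brown fat, chosen after seeing the data, 5 were higher (median -1.89). Leaving out 1 sample moved Cyp2d22 between -0.28 and 0.065, positive without tumor 1, 4 or 6 or benign sample 4, and Cyp51 between -0.45 and 0.054, positive without tumor 2 or 3 or benign sample 5. Without the muscle-rich samples the 2 genes turned to 0.26 and 0.043, and without the brown-fat-rich samples Cyp2d22 turned to 0.33. The cause of these shifts was not tested.

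Same-numbered samples came from different mice and did not deviate together (r from -0.12 to 0.10), so the replicate number does not pair them. With it as a block, 12 genes were lower and 2 higher, with a median of -2.37. Depth limits the 20 P450 genes under the limit, for which a difference of a few counts decides the value.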
